A study of Sus scrofa with 8 samples.

Results

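Wild-type pig limb muscle was followed from embryonic day 41 (E41) to embryonic day 62 (E62) by bulk RNA sequencing. The 4 wild-type libraries were taken by their sample titles, 2 titled WT at E41 (library names with 181-0991) and 2 titled WT at E62 (names with WT62_0987), out of 8 libraries in the series. The other 4 libraries come from limb muscle of embryos with a MYF5/MYOD/MYF6 knockout at the same stages, 2 at each. They share in the estimate of the spread and serve as a comparison at the end. No treatment, strain or sex is named in the labels, and wild-type animals carry no stated allele. The growth protocol names E60 where the titles say E62, and the series title says knockdown where the sample titles say knockout.

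Limb muscle forms in waves. Progenitors that entered the limb from the somites become myoblasts under the myogenic regulatory factors, withdraw from the cell cycle and fuse into a first set of fibres, along which later fibres are then laid down. As fibres mature they assemble sarcomeres and the membrane system that couples excitation to contraction, and they exchange embryonic and widely expressed protein isoforms for those of muscle, while nerve, vessels, tendon and connective tissue grow into the same limb.

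Total estimated counts were 23402052 and 25239378 in the E41 libraries and 35867841 and 37676855 in the E62 libraries, so E62 was sequenced more deeply. Across genes, log expression correlated at Pearson's r = 0.972 between the E41 libraries, 0.984 between the E62 libraries and 0.913 to 0.924 across the stages. Titles call the replicates biological without naming animals, and p-values therefore rest on the spread between libraries alone. Each group's library names carry a number of their own, and those of wild-type E41 carry the letters LHL where the other 3 groups have RHL, with no meaning given for either. What the numbers and letters stand for therefore cannot be told apart from the stage. The E41 libraries also differed from each other in skeletal genes. COL2A1, the main cartilage collagen, stood at 639 and 209 CPM at E41 and 44.0 and 40.3 CPM at E62, MATN1, another cartilage matrix gene, at 85.1 and 2.30 CPM at E41 and 0.331 and 0.0883 CPM at E62, and IBSP, a bone matrix gene, at 1.11 and 119 CPM at E41 and 0.0602 and 0 CPM at E62. SPP1, another bone matrix gene that other cells also make, went against IBSP, with 628 and 329 CPM at E41. Both cartilage genes were thus higher in E41 replicate 1, the bone genes differed in direction, and results are given below without either library where that moves them.

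The labelled tissue was checked against defining markers of muscle and of other cell types. All 6 skeletal muscle markers in the table (ACTA1, MYH3, DES, CKM, MYOG and NEB) were present in every library. Their sum was 7670 to 8980 counts per 1000000 of the scaled library total (CPM) at E41 and 19400 to 26600 at E62. The 5 cardiomyocyte markers summed to 14.1 to 18.3 CPM at E41 and 45.8 to 47.1 at E62. Most of that sum was MYH6 (14.5 and 9.11 CPM at E41 and 41 and 38.9 CPM at E62), and MYBPC3 had 0.821 and 1.06 CPM at E41 and 2.74 and 3.65 CPM at E62, whereas NPPA and NKX2-5, defining genes of heart muscle, stood at or under 0.177 CPM. In bulk tissue, fewer cells of a type and less RNA per cell cannot be told apart, and this holds for each result that follows.

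Keratinocyte and neuron markers moved the other way. The 3 keratinocyte markers in the table (KRT15, DSP and PERP) summed to 588 to 1000 CPM at E41 and 4.06 to 4.99 CPM at E62. The 4 neuron markers (ELAVL4, STMN2, SNAP25 and TUBB3) summed to 180 to 403 and 2.70 to 3.10 CPM. Most of the neuron sum was STMN2 (178 and 401 CPM at E41 and 2.77 and 2.41 CPM at E62). ELAVL4, SNAP25 and TUBB3 stood at or under 1.3 CPM in every wild-type library. Chondrocyte markers summed to 250 to 899 CPM at E41 and 51.3 to 67.1 at E62, osteoblast markers to 455 to 632 and 227 to 264, tendon markers to 91.7 to 316 and 44.4 to 57.1, and melanocyte markers to 21.0 to 57.4 and 2.83 to 3.19. Endothelial markers (556 to 703 and 682 to 712 CPM) and macrophage markers (61.8 to 115 and 103 to 113 CPM) overlapped or lay close between the stages. Schwann cell markers ran the other way (358 to 377 CPM at E41 and 490 to 508 at E62), as did the osteoblast marker BGLAP (0.145 and 0.310 CPM at E41 and 4.90 and 3.03 CPM at E62). The summed markers of keratinocytes, neurons, chondrocytes, osteoblasts, tendon and melanocytes were thus higher in the E41 libraries, and their part in the results below was not tested.

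**Figure D1:**
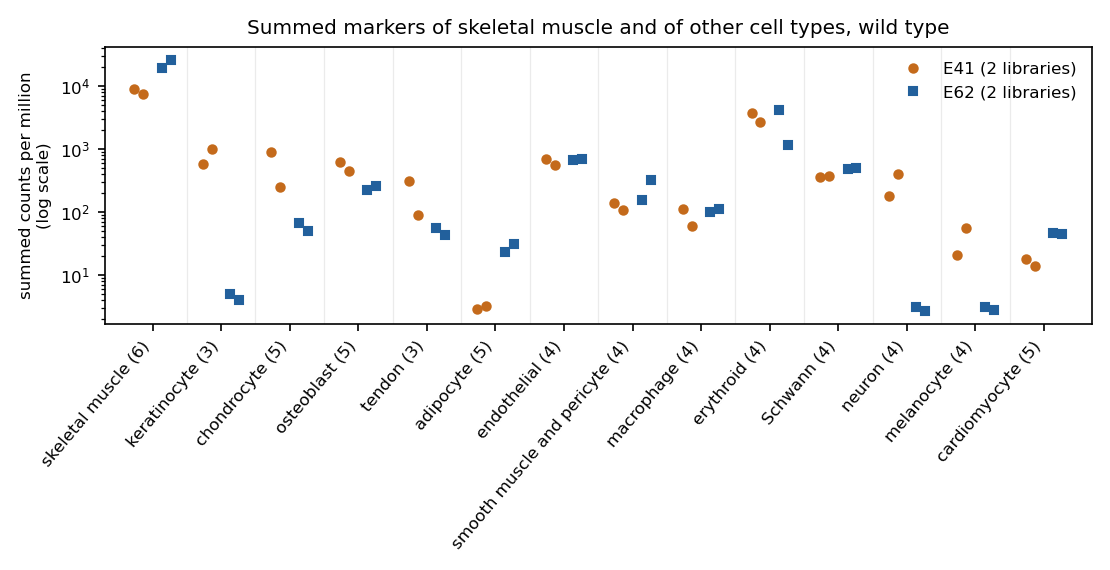
Summed CPM (log scale) of the defining markers of 14 cell types in each wild-type library, with the number of markers in brackets; circles are E41 and squares E62. Muscle markers were higher at E62, keratinocyte and neuron markers were far lower there, and endothelial markers lay close at both stages.

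The main comparison asked which genes changed in normal limb muscle between E41 and E62. Of 17020 genes tested with edgeR's quasi-likelihood test, 6782 (39.8%) passed a Benjamini-Hochberg adjusted p under 0.05, 3373 of them higher at E62 (19.8% of genes tested) and 3409 lower (20%). Of these, 1427 were at least 2-fold higher and 1303 at least 2-fold lower, and 479 and 630 at least 4-fold. The median log2 change over all genes was 0.03, with quartiles at -0.46 and 0.54. The 2 groups did not overlap in 12042 genes (70.8%), so lack of overlap alone says little here. Without WT E62 replicate 2 the number called was 4491. Values with ± are log2 changes of E62 against E41 with a standard error, n = 2 libraries per stage. That error is the size of the change divided by the square root of edgeR's F statistic. It rests on a spread estimated over all 8 libraries, so it does not measure the spread between the wild-type libraries alone. Adjusted p are edgeR's by the Benjamini-Hochberg method. The gene lists used below overlap in part, and none was tested as a set.

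Genes of energy supply and muscle metabolism led the rises. CA3, the carbonic anhydrase of skeletal muscle (gene span on chromosome 4, 51227485 to 51237861, RefSeq annotation of Sscrofa11.1), stood at 37.6 and 57.4 CPM at E41 and 1389 and 2154 CPM at E62. Both E62 libraries were far above both E41 libraries, a 37.3-fold difference (log2 change 5.22 ± 0.37, adjusted p = 0.00034). IP6K3, an inositol hexakisphosphate kinase, went from 0.0483 and 0.265 to 6.77 and 7.39 CPM (log2 change 5.44 ± 0.57, adjusted p = 0.00055). PLIN5, which coats lipid droplets beside mitochondria, went from 1.26 and 1.64 to 27.0 and 26.0 CPM (4.19 ± 0.44), and its neighbour on chromosome 2, PLIN4, from 0.338 and 0.531 to 11.6 and 24.6 CPM (5.37 ± 1.28). The PLIN4 call was lost without WT E41 replicate 1 (adjusted p = 0.111), WT E41 replicate 2 (0.101) and WT E62 replicate 2 (0.0778).

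Other large rises were of transcripts near 0 at E41. They included the relaxin receptor RXFP1 (5.09 ± 1.16, lost without WT E62 replicate 2 (adjusted p = 0.058)), the carboxypeptidase CPA5 (4.76 ± 0.43), C14orf180 (4.71 ± 0.67), the mitochondrial carrier SLC25A34 (4.29 ± 0.40), the zinc finger factor SNAI3 (4.25 ± 0.67) and the cytosolic nucleotidase NT5C1A (4.17 ± 0.29). NT5C1A, for one, had 0.966 and 0.841 CPM at E41 and 17.4 and 15.2 CPM at E62. UCP3, a muscle uncoupling protein, had 0 and 0 CPM at E41 and 3.16 and 3.74 CPM at E62 and was at least 49.8-fold higher taking 3 counts over the E41 group as the floor (adjusted p = 0.0018).

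Several of the largest falls were of genes known from skin and other epithelia. GABRP had 56.6 and 137 CPM at E41 and 0 and 0 CPM at E62 and was at least 2206-fold lower (adjusted p = 0.007), a call lost with limma-voom (adjusted p = 0.0749). KRT18, a keratin of simple epithelia, had 9.42 and 22.0 CPM at E41 and 0 and 0.0294 CPM at E62, a 1074-fold difference with an interval of 192 to 42478 from counting error alone (adjusted p = 0.00075). The squamous serpin SERPINB5 had 76.7 and 148 CPM at E41 and 0 and 0.0294 CPM at E62. Its call (adjusted p = 0.043) was lost without any 1 of the 4 wild-type libraries or either KO E41 library, or with limma-voom or no low-count filter (adjusted p 0.064 to 0.428). These falls went with the drop in keratinocyte markers given above, whose part was not tested.

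**Figure D2:**
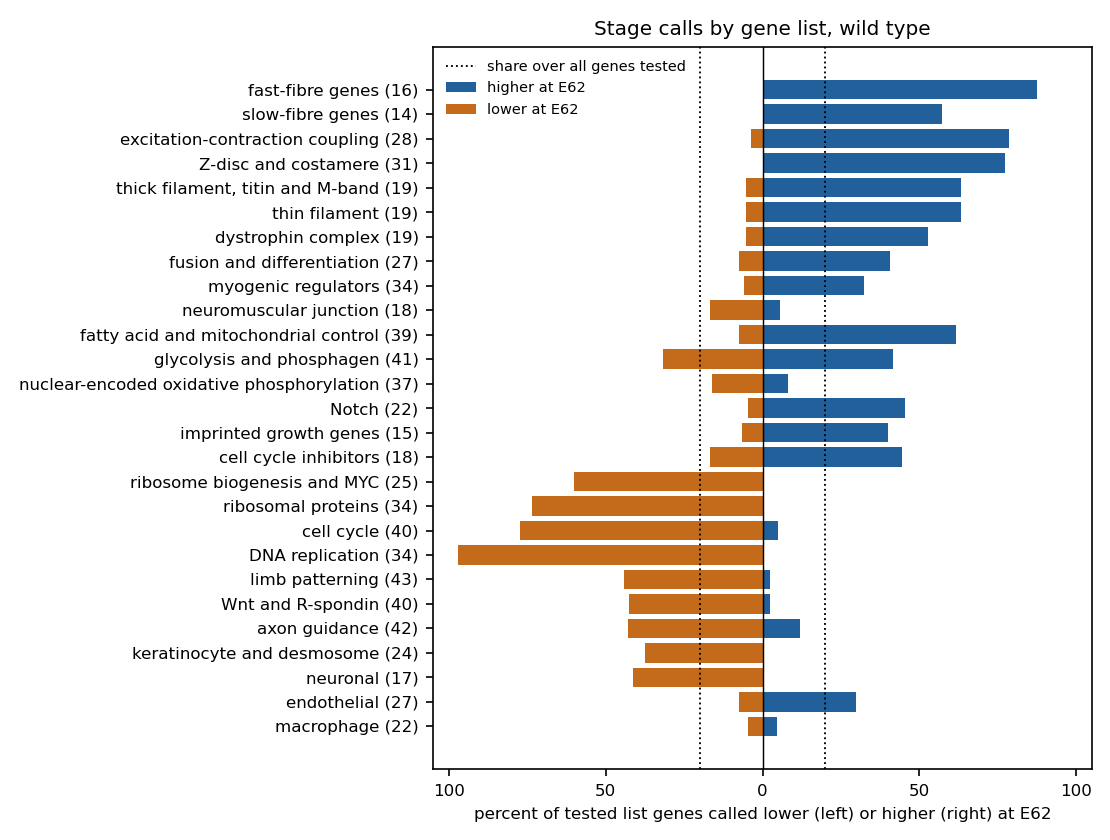
Share of the tested genes of each list (number in brackets) called higher at E62 (bars to the right) or lower (bars to the left) in wild type; dotted lines mark the 19.8% and 20% over all genes tested. Fibre, Z-disc and coupling lists lie to the right, replication, cell cycle and ribosomal lists to the left.

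Several of the factors that establish and maintain the muscle lineage were higher at E62. Of 34 myogenic regulators tested, 11 were higher and 2 lower, with a median log2 change of 0.65. The share called in either direction, 38.2%, was close to the 39.8% over all genes. MYF6, the factor of maturing fibres (chromosome 5, 100762918 to 100764771), stood at 25.6 and 29.7 CPM at E41 and 103 and 108 CPM at E62. All 4 values were close within a stage, and the difference was 3.82-fold (log2 change 1.93 ± 0.12, adjusted p = 0.00036). MYOD1, which commits cells to the muscle fate, had 72.6 and 95.6 CPM at E41 and 172 and 153 CPM at E62 (log2 change 0.95 ± 0.17, adjusted p = 0.0042). MYOG, which drives terminal differentiation, had 342 and 413 CPM at E41 and 637 and 579 CPM at E62 (log2 change 0.69 ± 0.14, adjusted p = 0.0067). Their cofactors of the MEF2 family rose likewise, MEF2C from 510.3 and 411 to 967 and 976 CPM (1.08 ± 0.13) and MEF2D from 78.1 and 78.3 to 176 and 185 CPM (1.21 ± 0.13).

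Several genes of earlier steps did not pass the test. MYF5, the first of the 4 myogenic factors to appear in the embryo (chromosome 5, 100753440 to 100755558, beside MYF6), had 45.8 and 53.8 CPM at E41 and 96.6 and 62.2 CPM at E62. The lower E62 value lay close to the higher E41 value (log2 change 0.67 ± 0.24, adjusted p = 0.081), and the gene passed without WT E62 replicate 2, or with DESeq2, limma-voom or thinned counts (adjusted p 0.0113 to 0.0472). PAX7, the marker of muscle progenitors and later stem cells, had 84.0 and 82.0 CPM at E41 and 116 and 84.5 CPM at E62, which nearly met between the stages (log2 change 0.28 ± 0.46, adjusted p = 0.67). PAX3, the factor of migrating progenitors, was at most 1.42 CPM in any of the 4 libraries (0.338 and 1.42 CPM at E41 and 0.331 and 0.0589 CPM at E62). The 2 regulators called lower were BHLHE41, a repressor (-2.09 ± 0.38), and EYA2, a transcriptional cofactor, whose call was lost without WT E41 replicate 2 (adjusted p = 0.104), WT E62 replicate 1 (0.083) and WT E62 replicate 2 (0.103). The lower count was 1 without WT E41 replicate 2 or WT E62 replicate 2.

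Embryonic and neonatal myosin heavy chains rose modestly, and 2 forms of special muscles fell. Of 11 heavy chains in the list, 9 had a row under their symbol and were tested, so the list does not cover every form. Of these 9, 5 were called higher and 2 lower (median 1.24). MYH3, the embryonic form, had 5579 and 4452 CPM at E41 and 6673 and 8740.0 CPM at E62. The lowest E62 value lay just above the highest E41 value, and the change was small (log2 change 0.62 ± 0.18, adjusted p = 0.029). Its call was lost without WT E41 replicate 2, WT E62 replicate 2 or either KO E41 library, or with the wild-type libraries alone (adjusted p 0.0544 to 0.114). MYH8, the neonatal form, had 2625 and 1931 CPM at E41 and 6453 and 7091 CPM at E62, a 2.97-fold difference between groups that lay well apart (log2 change 1.57 ± 0.33, adjusted p = 0.0099). That call was lost without WT E41 replicate 2 (adjusted p = 0.0625) and WT E62 replicate 2 (0.0511). MYH7B, related to the slow form, rose from 43.6 and 36.3 to 103 and 86.3 CPM (1.24 ± 0.15), and MYH6, known as a cardiac and jaw muscle form, from 14.5 and 9.11 to 41 and 38.9 CPM (1.76 ± 0.25). The fifth, MYH16, stayed under 0.6 CPM (1.63 ± 0.54), and its call was lost without any 1 of the 8 libraries, or with DESeq2, limma-voom, no low-count filter or the wild-type libraries alone (adjusted p 0.0599 to 0.127). Heavy chains called higher thus numbered 2 without WT E41 replicate 2 or WT E62 replicate 2, and 3 without either KO E41 library or with the wild-type libraries alone.

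The adult fast myosins that were tested, MYH1 and MYH4, did not pass. MYH1, an adult fast form, had 6.96 and 4.69 CPM at E41 and 10.4 and 32.0 CPM at E62, with the E62 libraries far apart (log2 change 1.86 ± 0.88, adjusted p = 0.15). It passed without KO E62 replicate 1 (adjusted p = 0.04) and KO E62 replicate 2 (0.0403). MYH4, another, stayed at or under 1.41 CPM (0.290 and 0.619 CPM at E41 and 0.662 and 1.41 CPM at E62, adjusted p = 0.4). The 2 heavy chains called lower are known from extraocular and other special muscles. MYH13 fell from 10.6 and 10.4 to 0.481 and 1.15 CPM (log2 change -3.69 ± 0.50, adjusted p = 0.0014) and MYH15 from 77.7 and 77.2 to 36.9 and 21.8 CPM (log2 change -1.40 ± 0.27, adjusted p = 0.0079).

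Myosin light chains of both fibre types were higher at E62. Of 10 tested, 7 were higher and 0 lower (median 0.94). The fast alkali chain MYL1 had 2204 and 2575 CPM at E41 and 5015 and 5463 CPM at E62 (log2 change 1.13 ± 0.14, adjusted p = 0.001), and the slow and ventricular chain MYL3 had 216 and 217 CPM at E41 and 579 and 439 CPM at E62 (log2 change 1.23 ± 0.14, adjusted p = 0.00068). In both, the stages lay well apart. The regulatory chains moved less: fast MYL11 by 0.63 ± 0.14 and slow MYL2 by 0.75 ± 0.14. The kinases that phosphorylate them moved more, MYLK2 from 33.2 and 30.7 to 159 and 136 CPM (2.20 ± 0.14) and MYLK3, known best from heart, from 1.45 and 1.28 to 18.0 and 21.7 CPM (3.86 ± 0.30). MYL4, the embryonic and atrial chain, had 1020.0 and 1124 CPM at E41 and 1591 and 1590.3 CPM at E62 and did not pass (log2 change 0.57 ± 0.75, adjusted p = 0.59) in the fit with all libraries. It passed without either KO E62 library, or with the wild-type libraries alone (adjusted p 0.0186 to 0.0353). MYL6B had 570.4 and 640.0 CPM at E41 and 565 and 572 CPM at E62, with overlapping stages (log2 change -0.09 ± 0.18, adjusted p = 0.71).

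Among thin filament genes the actin of adult skeletal muscle rose, and the call of its cardiac and fetal counterpart depended on the tool. Of 19 genes, 12 were higher and 1 lower (median 1.19). ACTA1 (chromosome 14, 60412651 to 60415687) stood at 1104 and 944 CPM at E41 and 4325 and 7494 CPM at E62, a 5.77-fold difference (log2 change 2.53 ± 0.28, adjusted p = 0.00085). ACTC1, the cardiac actin that is also the early form of skeletal muscle, had 7187 and 8200.1 CPM at E41 and 10133 and 11261 CPM at E62 (log2 change 0.48 ± 0.21, adjusted p = 0.11). Both E62 libraries were above both E41 libraries for ACTC1 too, and the gene passed with DESeq2 (adjusted p = 0.00117) and limma-voom (0.0305). The difference between the changes of the 2 actins was not itself tested.

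The fast troponins were called higher and the slow and cardiac ones were not. TNNC2, the fast calcium sensor, had 855 and 1067 CPM at E41 and 2527 and 3170.2 CPM at E62 (log2 change 1.57 ± 0.20, adjusted p = 0.0011). TNNT3, fast troponin T, had 853 and 895 CPM at E41 and 2920.2 and 3388 CPM at E62 (log2 change 1.85 ± 0.46, adjusted p = 0.024), and TNNI2, fast troponin I, 434 and 463 CPM at E41 and 1723 and 1852 CPM at E62 (log2 change 2.0 ± 0.53, adjusted p = 0.031). The TNNT3 call was lost without any 1 of the 4 wild-type libraries (adjusted p 0.0693 to 0.102), and the TNNI2 call without any 1 of the 4 wild-type libraries (adjusted p 0.0928 to 0.12), although the stages of both lay well apart. The slow subunits were TNNC1 at 1281 and 1561 CPM at E41 and 1589.7 and 1219 CPM at E62 (adjusted p = 0.99), TNNT1 at 819 and 891 CPM at E41 and 748 and 487 CPM at E62 (adjusted p = 0.2) and TNNI1 at 753 and 825 CPM at E41 and 1351 and 978 CPM at E62 (adjusted p = 0.14). TNNI1 passed without either KO E62 library, or with DESeq2, limma-voom or the wild-type libraries alone (adjusted p 0.0338 to 0.0474). TNNT2, the cardiac form that embryonic muscle also uses, had 723 and 609 CPM at E41 and 834 and 705 CPM at E62 (adjusted p = 0.3).

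Tropomyosins and filament-end proteins completed the group. TPM2 rose from 2755 and 2889 to 6197 and 6692 CPM (1.19 ± 0.14) and TPM1 from 995 and 890.3 to 1709 and 2756 CPM (1.24 ± 0.24). TMOD4, the tropomodulin that caps thin filaments in skeletal muscle, had 1.40 and 1.77 CPM at E41 and 23.8 and 23.4 CPM at E62 and rose 14.8-fold (log2 change 3.89 ± 0.31, adjusted p = 0.00023). NEB, nebulin, had 557 and 502 CPM at E41 and 1069 and 2572 CPM at E62, with the E62 libraries more than 2-fold apart (log2 change 1.78 ± 0.53, adjusted p = 0.045). Its call was lost without WT E41 replicate 1, WT E41 replicate 2, WT E62 replicate 2 or either KO E41 library, or with no low-count filter (adjusted p 0.0676 to 0.166). The 1 thin filament gene called lower was NEBL, a nebulin relative (-0.69 ± 0.21), and its call was lost without WT E41 replicate 2, WT E62 replicate 1, WT E62 replicate 2 or either KO E41 library, or with limma-voom, TMM factors without the muscle lists or thinned counts (adjusted p 0.0505 to 0.255).

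**Figure D3:**
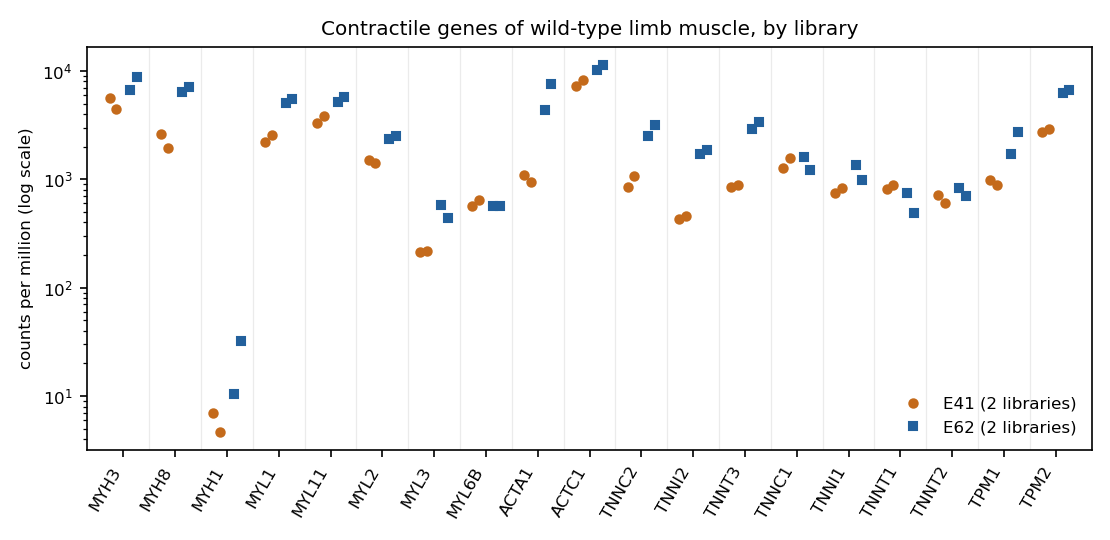
CPM (log scale) of contractile genes in each wild-type library, circles for E41 and squares for E62, not scaled for gene length. ACTA1 rises from 944 and 1104 CPM at E41 to 4325 and 7494 CPM at E62, the fast troponins (TNNC2, TNNI2 and TNNT3) lie more than 2-fold apart between stages, and the slow ones (TNNC1, TNNI1 and TNNT1) lie within 2-fold.

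Read across fibre types, 14 of 16 fast-fibre genes were higher and 0 lower (median 1.86), and 8 of 14 slow-fibre genes were higher and 0 lower (median 1.10). The 2 fast genes that did not pass were the adult myosins MYH1 and MYH4. Fast ACTN3, an alpha-actinin of the Z-disc, rose from 1.88 and 1.5 to 9.98 and 10.9 CPM (2.63 ± 0.28), and MYBPC1, the slow form of myosin-binding protein C, from 969.5 and 927 to 3934 and 5142 CPM (2.26 ± 0.15). The medians of the 2 lists were not tested against each other.

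Thick filament, M-band and Z-disc genes rose broadly. Of 19 thick filament, titin and M-band genes, 12 were higher and 1 lower (median 1.15), and of 31 Z-disc and costamere genes 24 were higher and 0 lower (median 1.27). TTN, the gene of titin itself, had no row under its symbol and was not among them. CMYA5, a costameric protein, had 26.4 and 26.0 CPM at E41 and 246 and 318 CPM at E62 (log2 change 3.43 ± 0.32, adjusted p = 0.00078). The E62 libraries differed from each other, yet both lay more than 4-fold above E41.

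MYOZ1, a Z-disc calsarcin of fast fibres, had 58.0 and 56.9 CPM at E41 and 340.0 and 407 CPM at E62, a 6.5-fold rise with close replicates (log2 change 2.70 ± 0.14, adjusted p = 0.00012). TCAP, the telethonin that caps titin, went from 36.8 and 38.2 to 196 and 229 CPM (2.50 ± 0.19), HSPB7, a small heat shock protein of striated muscle, from 4.35 and 5.04 to 27.6 and 41.5 CPM (2.88 ± 0.28), and CAPN3, the titin-bound protease, from 51.7 and 50.7 to 176 and 192 CPM (1.84 ± 0.09). The gene of the thick filament list called lower was HSP90AA1, an inducible chaperone that takes part in folding myosin (2255 and 2026 CPM at E41 and 1188 and 1165 CPM at E62, -0.86 ± 0.12). Without WT E62 replicate 2, 1 Z-disc gene was called lower, where the full set gave 0.

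Excitation-contraction coupling, by which the action potential releases calcium from the sarcoplasmic reticulum, showed broad rises. Of 28 genes tested, 22 were higher and 1 lower (median 1.54). RYR1, the calcium release channel, had 180.3 and 159.7 CPM at E41 and 553 and 783 CPM at E62 (log2 change 1.97 ± 0.17, adjusted p = 0.00034). SLN, sarcolipin, an inhibitor of the calcium pump, had 89.6 and 107 CPM at E41 and 590.3 and 624 CPM at E62 (log2 change 2.63 ± 0.12, adjusted p = 0.00011). Neither gene overlapped between stages. BIN1, which shapes the T-tubule, went from 121 and 129 to 434 and 488 CPM (1.88 ± 0.10), JSRP1, a triad protein, from 19.6 and 25.5 to 89.9 and 101 CPM (2.08 ± 0.20), and the calcium channel subunit CACNG1 from 22.6 and 27.2 to 70.5 and 66.3 CPM (1.46 ± 0.13). TMEM38A, a cation channel of the reticulum, went from 92.7 and 97.2 to 235 and 218 CPM (1.25 ± 0.09). The 1 gene called lower was ASPH (-0.45 ± 0.11), which was no longer called without WT E41 replicate 1 (adjusted p = 0.137) and WT E62 replicate 1 (0.128).

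Genes of the neuromuscular junction were called in both directions. Of 18 genes, 1 was higher and 3 lower, with a median of -0.02. The share called in either direction, 22.2%, was below the 39.8% over all genes. The acetylcholine receptor is built of alpha, beta and delta subunits with a gamma subunit in the fetus and an epsilon subunit in the adult. The beta subunit CHRNB1 had 41.2 and 38.9 CPM at E41 and 79.0 and 82.4 CPM at E62 and was the 1 gene called higher (log2 change 1.01 ± 0.10, adjusted p = 0.00048). The alpha subunit CHRNA1 had 763 and 625 CPM at E41 and 416 and 362 CPM at E62, and its fall (log2 change -0.84 ± 0.27, adjusted p = 0.047) was lost without any 1 of the 4 wild-type libraries, or with RLE factors, library size alone, TMM factors without the muscle lists, no low-count filter or the 1 CPM filter (adjusted p 0.0525 to 0.252). The fetal gamma subunit CHRNG had 106 and 118 CPM at E41 and 92.6 and 54.9 CPM at E62 (log2 change -0.61 ± 0.30, adjusted p = 0.17) and passed without WT E62 replicate 1, or with DESeq2 (adjusted p 0.047 to 0.0496). The adult epsilon subunit CHRNE had 2.80 and 2.96 CPM at E41 and 3.94 and 4.30 CPM at E62, levels too close to pass (log2 change 0.51 ± 0.31, adjusted p = 0.21). The delta subunit CHRND had 52.0 and 47.8 CPM at E41 and 39.5 and 35.4 CPM at E62 (log2 change -0.41 ± 0.14, adjusted p = 0.054), and it passed without either KO E41 library or either KO E62 library, or with limma-voom or the wild-type libraries alone (adjusted p 0.0188 to 0.0499).

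Of the genes that cluster the receptor, agrin fell. AGRN, which is made by several tissues besides the motor neuron, had 180.2 and 203 CPM at E41 and 60.3 and 87.6 CPM at E62 (log2 change -1.37 ± 0.19, adjusted p = 0.0017). MUSK, the kinase it acts through, had 93.1 and 83.4 CPM at E41 and 71.2 and 81.6 CPM at E62, nearly level between stages (log2 change -0.21 ± 0.11, adjusted p = 0.16). The third gene called lower was UTRN, the utrophin of fetal membranes and adult junctions (239 and 208 CPM at E41 and 153 and 179 CPM at E62, log2 change -0.43 ± 0.11, adjusted p = 0.019), whose call was lost without WT E41 replicate 1 (adjusted p = 0.198) and WT E62 replicate 1 (0.186). The lower count for the junction was 1 without WT E41 replicate 1 and 6 without either KO E62 library, and the higher count was 3 without either KO E62 library. With the wild-type libraries alone 3 were higher and 6 lower, with DESeq2 2 and 6, and limma-voom called 5 lower.

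Dystrophin, which replaces utrophin along the fibre membrane, rose. Of 19 genes of the dystrophin complex, 10 were higher and 1, UTRN, lower (median 0.67). DMD had 95.9 and 87.0 CPM at E41 and 197 and 253 CPM at E62, more than 2-fold higher (log2 change 1.30 ± 0.15, adjusted p = 0.00082). SGCA, alpha-sarcoglycan, went from 58.8 and 76.0 to 205 and 176 CPM (1.5 ± 0.14), and DTNA, a dystrobrevin, from 31.4 and 34.1 to 71.8 and 79.3 CPM (1.21 ± 0.20). In neither did the stages overlap.

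Genes of myoblast fusion and differentiation were mixed. Of 27 tested, 11 were higher and 2 lower (median 0.27), and the higher count was 7 without WT E41 replicate 2 or without WT E62 replicate 2. MYMK, the membrane protein that makes myoblasts fuse, had 94.2 and 116 CPM at E41 and 135 and 104 CPM at E62, with overlapping stages (log2 change 0.18 ± 0.15, adjusted p = 0.37). CDH15, the muscle cadherin, had 124 and 123 CPM at E41 and 365 and 334 CPM at E62 and rose (log2 change 1.5 ± 0.12, adjusted p = 0.00023). The splicing regulators MBNL1 and RBFOX1, which set adult exon use in muscle, rose from 23.7 and 28.8 to 53.6 and 68.4 CPM (1.22 ± 0.15) and from 2.27 and 3.67 to 11.1 and 13.7 CPM (2.06 ± 0.32). DYSF, a membrane repair protein, rose from 153 and 129 to 304 and 308 CPM (1.12 ± 0.18). The 2 genes called lower were CHRNA1, given above, and ITGB1 (-0.48 ± 0.13), which was lost without WT E41 replicate 1 (adjusted p = 0.213), WT E62 replicate 1 (0.191) and WT E62 replicate 2 (0.0624). The lower count was 1 without WT E41 replicate 2 or WT E62 replicate 2 and 0 without WT E62 replicate 1. DESeq2 called 4 lower, and RLE factors, library size alone, TMM factors without the muscle lists and both other filters gave 1.

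Energy metabolism genes moved both ways, with muscle isoforms among the rises and isoforms of other tissues among the falls. Of 41 glycolysis and phosphagen genes, 17 were higher and 13 lower (median 0.33), and the lower count was 8 without WT E62 replicate 2. CKM, the muscle creatine kinase (chromosome 6, 51704021 to 51716935), had 326 and 264 CPM at E41 and 3016 and 2807 CPM at E62, a 9.87-fold rise (log2 change 3.30 ± 0.15, adjusted p = 0.00011). CKB, the brain form that myoblasts use, had 159 and 151 CPM at E41 and 189 and 129.6 CPM at E62, with stages that overlapped (log2 change 0.04 ± 0.16, adjusted p = 0.86). The muscle forms of 5 other enzymes or carriers rose where their counterparts fell, and these pairs were put together after their values were seen. LDHA, a lactate dehydrogenase subunit of muscle given below, fell and is not among the pairs.

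Beta-enolase, ENO3, had 127 and 149 CPM at E41 and 597 and 749.8 CPM at E62 (log2 change 2.29 ± 0.20, adjusted p = 0.0004), and alpha-enolase, ENO1, 1014 and 1223 CPM at E41 and 567 and 431 CPM at E62 (log2 change -1.16 ± 0.22, adjusted p = 0.0051). Muscle phosphoglycerate mutase, PGAM2, had 157 and 171 CPM at E41 and 489 and 403 CPM at E62 (log2 change 1.45 ± 0.18, adjusted p = 0.0012), and the widely expressed PGAM1 526 and 625 CPM at E41 and 178 and 164 CPM at E62 (log2 change -1.75 ± 0.15, adjusted p = 0.00034). In both pairs the stages lay apart in opposite directions. Muscle glycogen phosphorylase, PYGM, rose from 118 and 127 to 431 and 433 CPM (1.82 ± 0.20), while the brain form PYGB fell from 15.9 and 20.7 to 1.95 and 2.30 CPM (-3.10 ± 0.17). Aldolase A, ALDOA, rose from 477 and 583 to 1495 and 1583 CPM (1.54 ± 0.14), while ALDOC fell from 23.6 and 28.7 to 2.89 and 3.03 CPM (-3.14 ± 0.30). The pair of mitochondrial ADP/ATP carriers did the same. SLC25A4, the form of heart and muscle, rose from 89.8 and 80.3 to 245 and 302 CPM (1.68 ± 0.13), and SLC25A5, the form of dividing cells, fell from 48.8 and 49.0 to 19.3 and 18.1 CPM (-1.38 ± 0.09).

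The glucose transporter GLUT1, hexokinase 1 and a lactate dehydrogenase fell. SLC2A1, which encodes GLUT1, had 106 and 145 CPM at E41 and 43.5 and 34.8 CPM at E62 (log2 change -1.68 ± 0.18, adjusted p = 0.00073), and HK1 had 238 and 238 CPM at E41 and 101 and 119 CPM at E62 (log2 change -1.12 ± 0.11, adjusted p = 0.00043). LDHA, the lactate dehydrogenase subunit of muscle, had 703 and 849 CPM at E41 and 328 and 357 CPM at E62 (log2 change -1.18 ± 0.25, adjusted p = 0.0098), and its call was lost without WT E41 replicate 2 (adjusted p = 0.0647), WT E62 replicate 1 (0.0672) and WT E62 replicate 2 (0.0557). ADSS1, the muscle enzyme of the purine nucleotide cycle, moved the other way, from 39.1 and 45.2 to 105 and 92.0 CPM (1.23 ± 0.11).

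**Figure D4:**
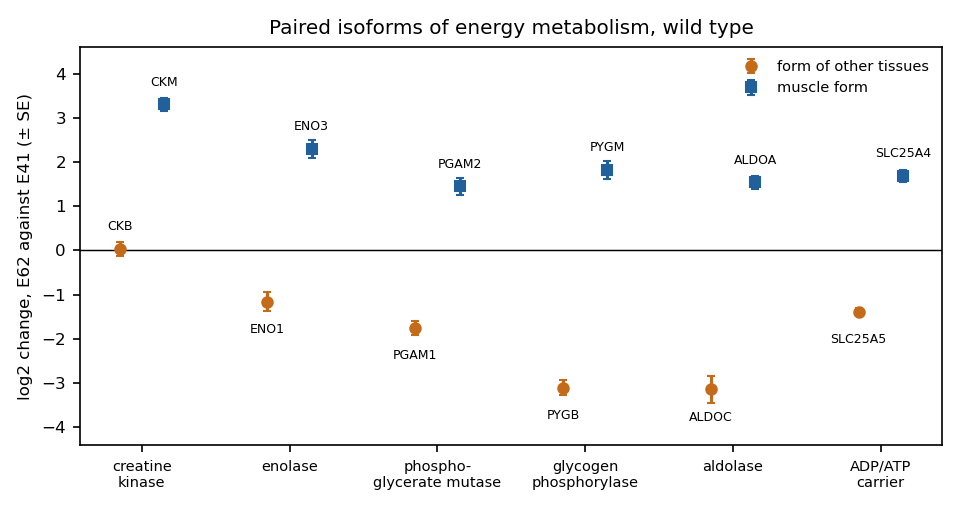
Log2 change of E62 against E41 in wild type for 6 isoform pairs, with standard errors (n = 2 libraries per stage); squares are the muscle forms and circles the forms of other tissues. Each muscle form shown rose (1.45 to 3.30), each counterpart except CKB fell (from -1.16 for ENO1 to -3.14 for ALDOC), and CKB was at 0.04. The pairs were chosen after their values were seen, and LDHA, a muscle form that fell (-1.18), is not shown.

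Most genes of fatty acid use and its regulators rose. Of 39 genes of fatty acid and mitochondrial control, 24 were higher and 3 lower (median 0.53). CPT1B, the muscle enzyme that admits fatty acids to mitochondria, had 3.72 and 3.45 CPM at E41 and 36.8 and 71.5 CPM at E62 (log2 change 3.92 ± 0.33, adjusted p = 0.00045). PPARGC1A, the coactivator that drives mitochondrial growth, had 5.02 and 5.09 CPM at E41 and 20.2 and 25.1 CPM at E62 (log2 change 2.16 ± 0.18, adjusted p = 0.00028), and its partner ESRRA 9.13 and 10.6 CPM at E41 and 35.5 and 31.9 CPM at E62 (log2 change 1.77 ± 0.14, adjusted p = 0.00022). All 3 had E62 values at least 3-fold above E41. The 3 called lower were SLC25A5, the kinase PDK1 and the carnitine carrier SLC25A20 (-0.27 ± 0.08). PDK1 went from 90.8 and 98.4 to 45.2 and 48.3 CPM (-1.02 ± 0.11). The SLC25A20 call was lost without any 1 of the 4 wild-type libraries or either KO E41 library, or with DESeq2, limma-voom, library size alone, TMM factors without the muscle lists, no low-count filter, the 1 CPM filter, thinned counts or the wild-type libraries alone (adjusted p 0.055 to 0.239).

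Subunits of the respiratory chain were called in both directions. Of 37 nuclear-encoded subunits, 3 were higher and 6 lower (median -0.11), shares below those over all genes. SDHA, of complex II, rose (99.9 and 104 to 184 and 158 CPM, 0.75 ± 0.11) with CYC1 (0.63 ± 0.13) and NDUFV1 (0.37 ± 0.09), while COX6C, of complex IV, fell (137 and 152 to 96.2 and 101 CPM, -0.55 ± 0.10). Leaving out WT E41 replicate 2 gave a lower count of 2, and leaving out WT E62 replicate 2 gave 3. The higher count was 6 with TMM factors without the muscle lists or the 1 CPM filter. Of the 13 protein genes of mitochondrial DNA, 5 were higher and 1 lower. ND5 had 1396 and 1469.6 CPM at E41 and 3435 and 2652 CPM at E62 (log2 change 1.09 ± 0.18, adjusted p = 0.0031) and ND4L 137 and 99.4 CPM at E41 and 425 and 352 CPM at E62 (log2 change 1.72 ± 0.19, adjusted p = 0.00071). The 1 called lower was ND3 (-0.51 ± 0.16), lost without WT E41 replicate 2, WT E62 replicate 2 or either KO E41 library, or with library size alone, TMM factors without the muscle lists or the wild-type libraries alone (adjusted p 0.0504 to 0.248). Mitochondrial genes called higher numbered 3 without WT E41 replicate 2, WT E62 replicate 1 or either KO E41 library, and the lower count 0 without WT E62 replicate 2 or either KO E41 library. The lower count was also 0 with library size alone, TMM factors without the muscle lists or the wild-type libraries alone, and 2 with DESeq2.

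Proliferation genes fell almost throughout. Of 34 DNA replication genes, 0 were higher and 33 lower (median -0.95), while the cell cycle list of 40 genes had 2 called higher and 31 lower (median -0.76). MCM3, part of the replicative helicase, had 172 and 183 CPM at E41 and 65.7 and 59.0 CPM at E62 (log2 change -1.51 ± 0.09, adjusted p = 0.00016), and MCM6, another part, 330.3 and 304 CPM at E41 and 123 and 123 CPM at E62 (log2 change -1.37 ± 0.09, adjusted p = 0.00016). The 2 fell by close to the same factor. TOP2A, the topoisomerase of mitosis, had 721 and 691 CPM at E41 and 277 and 266 CPM at E62 (log2 change -1.38 ± 0.10, adjusted p = 0.00017). TPX2, a spindle protein (-1.33 ± 0.09), the cyclins CCNB1 (-1.52 ± 0.13) and CCNB2 (-1.41 ± 0.10), and RRM1, which makes deoxynucleotides (-1.16 ± 0.09), fell likewise. None of these overlapped between stages, and the falls were about 2-fold to 3-fold, leaving their transcripts detected at E62.

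The exceptions were a kinase and a phosphatase. CDK6 had 23.7 and 18.8 CPM at E41 and 30.6 and 35.8 CPM at E62 (log2 change 0.64 ± 0.14, adjusted p = 0.011) and CDC25B 51.4 and 52.2 CPM at E41 and 93.7 and 80.4 CPM at E62 (log2 change 0.75 ± 0.10, adjusted p = 0.0011). Of 18 cell cycle inhibitors and growth arrest genes, 8 were higher and 3 lower (median 0.61). CDKN1B, the inhibitor p27, rose from 23.9 and 27.7 to 51.3 and 45.1 CPM (0.90 ± 0.13), CDKN2C, the inhibitor p18, from 14 and 12 to 26.5 and 22.9 CPM (0.93 ± 0.14) and GADD45G from 8.89 and 8.27 to 19.5 and 24.9 CPM (1.37 ± 0.18). Its relative GADD45A fell from 23.5 and 25 to 13.8 and 11.1 CPM (-0.96 ± 0.14), with RBL1 (-0.54 ± 0.09) and CDKN2B (-2.96 ± 0.79). The CDKN2B call was lost without any 1 of the 4 wild-type libraries, or with limma-voom (adjusted p 0.0603 to 0.118).

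Genes of protein synthesis fell with those of proliferation. Of 34 ribosomal protein genes, 0 were higher and 25 lower (median -0.56). This count dropped to 8 on leaving out WT E41 replicate 2 or WT E62 replicate 2, while the medians over the alternatives ran from -0.60 to -0.40. RPL7 had 3001 and 3349 CPM at E41 and 1655 and 1395 CPM at E62 (log2 change -1.06 ± 0.15, adjusted p = 0.0014) and RPL38 654 and 797 CPM at E41 and 373 and 314 CPM at E62 (log2 change -1.08 ± 0.14, adjusted p = 0.0013). Values of single ribosomal protein genes are uncertain, because reads of near-identical copies are shared out by estimation. Of 25 ribosome biogenesis genes, 0 were higher and 15 lower (median -0.40), 7 without WT E41 replicate 1 or WT E62 replicate 2. TMM factors without the muscle lists and the 1 CPM filter each called 1 higher. The nucleolar proteins NPM1 (1214 and 1255 to 647 and 609 CPM, -0.98 ± 0.13) and NCL (1218 and 1084 to 677 and 627 CPM, -0.82 ± 0.11) were among them.

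Some factors of the early embryo fell, and some imprinted growth genes rose. Of 24 early embryonic RNA-binding and chromatin factors, 4 were higher and 8 lower (median -0.43). CRABP1, a retinoic acid binding protein of embryonic mesenchyme and nerve, had 259 and 288 CPM at E41 and 12.4 and 5.21 CPM at E62, a 31.0-fold fall (log2 change -4.96 ± 0.42, adjusted p = 0.00068). IGF2BP1, an RNA-binding protein of fetal tissue, fell from 45.8 and 44.2 to 13.7 and 11.5 CPM (-1.84 ± 0.14), and EZH2, the polycomb methyltransferase, from 54.0 and 52.3 to 31.0 and 29.8 CPM (-0.81 ± 0.09). Against these, SOX11 rose from 13.0 and 13.9 to 33.5 and 28.9 CPM (1.21 ± 0.14) and ARID3A from 11.5 and 11.1 to 26.5 and 30.5 CPM (1.34 ± 0.14), with SOX12 (1.16 ± 0.17) and SOX4 (0.73 ± 0.19). The SOX4 call was lost without WT E41 replicate 2 (adjusted p = 0.0657) and WT E62 replicate 2 (0.0746).

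Of 15 imprinted growth genes tested, 6 were higher and 1 lower (median 0.90). DLK1, the membrane protein whose mis-expression gives the callipyge muscle overgrowth of sheep (chromosome 7, 121565844 to 121577493), had 514 and 512 CPM at E41 and 1822 and 1706 CPM at E62. The E41 libraries were alike, and both E62 libraries were more than 3-fold above them (log2 change 1.78 ± 0.22, adjusted p = 0.001). PEG3 rose from 23.5 and 21.8 to 48.2 and 58.1 CPM (1.23 ± 0.14), the zinc finger factor PLAGL1 from 60.3 and 62.7 to 124 and 127 CPM (1.03 ± 0.09) and PHLDA2 from 3.72 and 3.94 to 13.6 and 10.2 CPM (1.64 ± 0.23). RTL1, from the same imprinted cluster as DLK1, rose too (2.41 ± 0.43). The 1 called lower was IGF2BP2 (-0.87 ± 0.10).

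Several genes of the Notch pathway, which holds muscle progenitors undifferentiated and also patterns vessels, rose. Of 22 genes, 10 were higher and 1 lower (median 0.63). The receptor NOTCH1 had 29.5 and 37.7 CPM at E41 and 119 and 128 CPM at E62 (log2 change 1.87 ± 0.18, adjusted p = 0.00047). The ligands rose by similar factors, JAG2 from 16.7 and 13.8 to 63.2 and 64.3 CPM (2.07 ± 0.18) and DLL1 from 7.2 and 9.78 to 36.5 and 23.8 CPM (1.83 ± 0.26). In all 3 the E62 libraries lay more than 2-fold above both E41 libraries. The 1 lower was the receptor NOTCH2 (-0.58 ± 0.15), lost without WT E41 replicate 1 (adjusted p = 0.176) and WT E62 replicate 1 (0.156). DLK1 is a member of this list as well.

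Many patterning and Wnt genes of the limb bud were lower, though most of each list did not pass. Of 43 limb patterning genes, 1 was higher and 19 lower (median -1.32), the lower count being 12 without WT E41 replicate 2 and the higher count 0 with limma-voom. PITX1, the factor of hindlimb identity, had 39.2 and 40.5 CPM at E41 and 5.23 and 8.30 CPM at E62 (log2 change -2.56 ± 0.26, adjusted p = 0.0008). HAND2, of the posterior limb bud, fell from 7.2 and 3.58 to 0.451 and 0.589 CPM (-3.36 ± 0.36), SALL1 from 3.28 and 4.65 to 0.271 and 0.118 CPM (-4.34 ± 0.48), and IRX1 from 8.21 and 15.7 to 0.0902 and 0.147 CPM (-6.62 ± 0.52). The HOX genes were called in both directions, in a share (38.7%) close to the 39.8% over all genes. Of 31 tested, 8 were higher and 4 lower (median 0.10). The 4 lower were HOXD9, HOXD10, HOXD12 and HOXA11, which lie toward the end of their clusters that is used in the outer limb, and the 8 higher included HOXA5 (16.2 and 16.7 to 27.9 and 40.9 CPM, 1.07 ± 0.19) and HOXB3 (0.628 and 1.02 to 2.95 and 5.45 CPM, 2.34 ± 0.43). HOXD10 fell from 5.02 and 9.33 to 0.361 and 1.35 CPM (-3.06 ± 0.62), and HOXD12 from 0.966 and 2.21 to 0 and 0 CPM, at least 36.2-fold (adjusted p = 0.0092). HOXD9 was no longer called without WT E41 replicate 1, WT E41 replicate 2 or WT E62 replicate 1, or with limma-voom (adjusted p 0.0679 to 0.139), nor HOXA11 without WT E41 replicate 1, WT E41 replicate 2, WT E62 replicate 2, either KO E41 library or either KO E62 library, or with no low-count filter or the wild-type libraries alone (adjusted p 0.0549 to 0.15). The higher count was 5 without WT E41 replicate 1 or WT E62 replicate 2 or with limma-voom, and the lower count 2 without either E41 library.

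Of 40 Wnt and R-spondin genes, 1 was higher and 17 lower (median -1.14). The lower count depended on single libraries, being 10 without WT E41 replicate 2, 8 without WT E62 replicate 1 and 5 without WT E62 replicate 2, and it was 8 with limma-voom. WNT5A, a ligand of limb mesenchyme (chromosome 13, 37344684 to 37367215), had 60.5 and 64.2 CPM at E41 and 8.51 and 8.19 CPM at E62. Replicates were close, and the fall was 7.46-fold (log2 change -2.90 ± 0.14, adjusted p = 0.00011). WNT11 fell from 26.2 and 28.9 to 10.6 and 14.3 CPM (-1.14 ± 0.15) and the antagonist SFRP1 from 211 and 253 to 89.7 and 111 CPM (-1.21 ± 0.21). The 1 higher gene, the Wnt deacylase NOTUM (2.0 ± 0.53), was lost without WT E41 replicate 1 (adjusted p = 0.11), WT E41 replicate 2 (0.0816) and WT E62 replicate 2 (0.087). The higher count was 0 without either E41 library and 2 without WT E62 replicate 1.

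BMP and FGF genes were called in shares near the 39.8% over all genes, with large changes in a few members. Of 29 BMP genes, 2 were higher and 9 lower (median -0.48). The antagonist GREM1 had 35.4 and 59.6 CPM at E41 and 0.391 and 0.589 CPM at E62, a 96.2-fold fall (log2 change -6.59 ± 0.42, adjusted p = 0.00026). BMP4 fell from 13.5 and 15.1 to 6.02 and 5.62 CPM (-1.30 ± 0.21) and the BMP target ID2, an inhibitor of myogenic factors, from 32.6 and 34.6 to 14.6 and 14.1 CPM (-1.22 ± 0.11). The BMP genes called higher were the chordin-like antagonists CHRDL2 (1.70 ± 0.54) and CHRDL1 (1.52 ± 0.46). CHRDL1 was lost without WT E41 replicate 2, WT E62 replicate 2, either KO E41 library or either KO E62 library, or with limma-voom, no low-count filter, thinned counts or the wild-type libraries alone (adjusted p 0.0503 to 0.18), and CHRDL2 without any 1 of the 4 wild-type libraries, or with limma-voom or thinned counts (adjusted p 0.0517 to 0.123). The higher count was 0 without WT E41 replicate 2 and 1 without any other library, 0 with limma-voom or thinned counts, and 1 with no low-count filter or the wild-type libraries alone. Of 29 FGF genes, 5 were higher and 6 lower. The receptor FGFR2, known from epithelium and bone, had 40.3 and 71.6 CPM at E41 and 1.08 and 1.59 CPM at E62 (log2 change -5.38 ± 0.61, adjusted p = 0.0021), while the decoy receptor FGFRL1 rose from 36.1 and 37.9 to 193 and 169 CPM (2.29 ± 0.22). The higher FGF count was 3 without WT E41 replicate 2, and the lower count 3 without WT E41 replicate 1 or WT E62 replicate 2.

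Basement membrane genes were called in a share close to the 39.8% over all genes, 9 of 25. Of 25 genes, 3 were higher and 6 lower (median -0.22), and the lower count was 11 without either KO E62 library. With the wild-type libraries alone 5 were higher and 10 lower. LAMB2, the laminin chain of mature muscle and of the synaptic basement membrane, had 123 and 92.9 CPM at E41 and 396 and 371 CPM at E62 (log2 change 1.83 ± 0.17, adjusted p = 0.0004). LAMA1, a laminin chain of the early embryo, fell from 19.7 and 10.4 to 3.88 and 4.77 CPM (-1.80 ± 0.31). The collagen IV chains COL4A5 and COL4A6, encoded head to head on the X chromosome, fell from 53.1 and 66.4 to 12.4 and 16.4 CPM (-2.05 ± 0.18) and from 18.6 and 25.3 to 1.59 and 2.59 CPM (-3.39 ± 0.27). HSPG2, perlecan, was called higher (1.02 ± 0.23) but not without WT E41 replicate 1 (adjusted p = 0.051) and WT E41 replicate 2 (0.0537).

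Axon guidance genes, many of which also act in limb mesenchyme, were more often called lower than higher. Of 42 tested, 5 were higher and 18 lower (median -0.58), the higher count being 3 without any 1 of the 4 wild-type libraries or without KO E41 replicate 1. SLIT3 had 139 and 127 CPM at E41 and 28.9 and 35.0 CPM at E62 (log2 change -2.06 ± 0.13, adjusted p = 0.00016), and NRP2, a semaphorin receptor, 140.4 and 100.4 CPM at E41 and 27.6 and 29.7 CPM at E62 (log2 change -2.07 ± 0.18, adjusted p = 0.00034). Both fell about 4-fold. SEMA3F fell from 71.7 and 70.6 to 28.2 and 25.3 CPM (-1.41 ± 0.10) and EFNA5 from 41.7 and 46.5 to 6.62 and 7.22 CPM (-2.67 ± 0.27), while SEMA3G, a semaphorin of vessels, rose from 46.2 and 48.4 to 123 and 83.8 CPM (1.13 ± 0.18). The summed neuron markers, mostly STMN2, fell alongside, as given above, and their part was not tested.

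Fibroblast genes of limb connective tissue had shares near those over all genes. Of 24 fibroblast genes, 4 were higher and 6 lower (median -0.17), the lower count being 3 without WT E41 replicate 1. PDGFRA, the receptor that marks these cells, had 428 and 437 CPM at E41 and 211 and 215 CPM at E62, a fall of about 2-fold with close replicates (log2 change -1.02 ± 0.10, adjusted p = 0.0005). OSR2, a factor of limb connective tissue, fell from 32.9 and 34.1 to 18.6 and 18.2 CPM (-0.86 ± 0.11). Of 34 genes of small proteoglycans and elastic fibres, 3 were higher and 12 lower (median -0.37), the lower count being 7 without WT E41 replicate 1 or WT E62 replicate 1. The higher count was 5 with DESeq2, TMM factors without the muscle lists or the 1 CPM filter. EFEMP1, a fibulin, fell from 40.5 and 48.7 to 1.5 and 1.74 CPM (-4.78 ± 0.46), and TNXB, a tenascin of connective tissue, rose from 50.6 and 50.3 to 138 and 249 CPM (1.94 ± 0.26).

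Genes of other tissues in the limb were described in the same way. Of 24 keratinocyte and desmosome genes, 0 were higher and 9 lower, with a median of -5.98. The knockout E62 libraries, which share in the estimate of the spread, lay far apart for some skin genes. KRT15 had 258 and 3.34 CPM there and SERPINB5 37.8 and 0.417 CPM, and their part in these calls was not tested. The lower count was 4 without WT E62 replicate 1 or WT E62 replicate 2 and 23 without either KO E62 library or with the wild-type libraries alone, 20 with DESeq2 and 4 with limma-voom. KRT15, a basal keratin, had 339.6 and 493 CPM at E41 and 0.602 and 0.471 CPM at E62 (log2 change -9.59 ± 2.55, adjusted p = 0.04) and was no longer called without any 1 of the 4 wild-type libraries or either KO E41 library, or with limma-voom or no low-count filter (adjusted p 0.0605 to 0.451). Of 17 neuronal genes, 0 were higher and 7 lower, with a median of -1.87, or -1.05 with genes of few counts at their floor or ratio. That lower count was 4 without WT E41 replicate 1, 3 without WT E62 replicate 1 and 2 without WT E62 replicate 2, and 4 with limma-voom. STMN2, a growth cone protein, had 178 and 401 CPM at E41 and 2.77 and 2.41 CPM at E62 (log2 change -6.80 ± 0.50, adjusted p = 0.00053). Of 23 cartilage genes, 1 was higher and 3 lower (median -2.11), a share called of 17.4% against 39.8% over all genes. The lower count was 1 without either WT E62 library, 6 when KO E41 replicate 1 was left out and 7 when its partner was, and the higher count 0 without either E41 library or WT E62 replicate 2. DESeq2 called 13 lower, and the wild-type libraries alone gave 6, or 13 with the replicate number as a block.

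Some fat and vessel genes were higher. FABP4, a fatty acid binding protein of fat cells and capillaries, had 2.08 and 2.26 CPM at E41 and 21.6 and 29.3 CPM at E62 (log2 change 3.55 ± 0.31, adjusted p = 0.00047), whereas the fat cell hormone ADIPOQ stayed at or under 0.324 CPM (0 and 0.0885 CPM at E41 and 0.120 and 0.324 CPM at E62, adjusted p = 0.29). GPIHBP1, which anchors lipoprotein lipase on capillaries, rose from 2.17 and 2.39 to 8.75 and 8.33 CPM (1.90 ± 0.25). Of 27 endothelial genes, 8 were higher and 2 lower (median 0.42), and the share called, 37%, was close to the 39.8% over all genes. Endothelial genes called higher numbered 5 without WT E41 replicate 1, 2 with WT E41 replicate 2 left out, 3 without WT E62 replicate 1 and 1 without WT E62 replicate 2, and the lower count 0 without WT E41 replicate 1 or WT E62 replicate 2. With limma-voom 3 were higher and 1 lower. PECAM1, carried by all endothelium, had 243 and 214 CPM at E41 and 276 and 275 CPM at E62 (log2 change 0.27 ± 0.22, adjusted p = 0.36). Of 22 macrophage genes, 1 was higher and 1 lower, a share called of 9.09%, below that over all genes. Leaving out WT E41 replicate 1 gave a higher count of 6, and leaving out WT E62 replicate 2 gave 0. The lower count was 6 without WT E41 replicate 2 and 0 without any other wild-type library. The higher count ran from 0 to 2 and the lower count from 0 to 1 over the other scalings, filters and tools.

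The wild-type change was then set against the change in limbs without the 3 myogenic factors, from 4 other libraries, to ask which stage changes differed when muscle was not formed. The change differed between genotypes in 4553 of 17020 genes (26.8%, adjusted p of the difference under 0.05), 2640 with the wild-type change above the knockout change (15.5%) and 1913 below (11.2%). Leaving out KO E41 replicate 1 lowered it to 2499 genes, and leaving out replicate 2 of that group to 2685. Of the 6782 genes that changed in wild type, 3175 also differed from the knockout. Of these, 1758 were higher at E62 with a wild-type change above the knockout change, and 1348 were lower with a wild-type change below it. The same wild-type change enters both tests, so this overlap and the shared direction are in part built in. The other 3607 changed in wild type with no detected difference from the knockout, which does not show that they changed alike. In the knockout 5126 genes changed with stage, of which 1726 also changed in the same direction in wild type and 823 in the opposite one.

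The targeted genes checked the labels. MYF5 and MYF6 had 0 counts in all 4 knockout libraries. MYOD1 had 0.603 and 0.434 CPM at E41 and 1.14 and 1.47 CPM at E62, against 72.6 to 172 CPM in wild type. MYOG was at most 0.0434 CPM in the knockout, and CKM at most 1.43 CPM, so knockout changes of muscle genes are changes from low levels.

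Several muscle genes differed between genotypes. CKM changed by 3.30 ± 0.15 in wild type and 0.68 ± 0.19 in knockout, a difference of 2.63 ± 0.24 (adjusted p = 0.00092). MYOZ1 changed by 2.70 ± 0.14 and -0.70 ± 0.27 (adjusted p = 0.00086 for the difference), and DMD by 1.30 ± 0.15 and -0.67 ± 0.15 (adjusted p = 0.0013). CDH15 behaved the same way, with 1.5 ± 0.12 and -0.85 ± 0.19 (adjusted p = 0.00099). The rises of these Notch, imprinted and SOX genes were not seen in the knockout either. DLK1 changed by 1.78 ± 0.22 and -0.33 ± 0.21 (adjusted p = 0.0032), NOTCH1 by 1.87 ± 0.18 and -0.43 ± 0.17 (adjusted p = 0.0013), JAG2 by 2.07 ± 0.18 and -1.02 ± 0.17 (adjusted p = 0.00065) and SOX11 by 1.21 ± 0.14 and -1.27 ± 0.14 (adjusted p = 0.00065). In the knockout libraries DLK1 had 121 and 141 CPM at E41 and 79.7 and 129.5 CPM at E62, below every wild-type library. NOTCH1 had 97.4 and 70.0 CPM at E41 and 61.8 and 62.3 CPM at E62, above both wild-type E41 libraries and below both wild-type E62 libraries.

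Some wild-type falls were smaller or missing in the knockout. MCM3 changed by -1.51 ± 0.09 in wild type and -0.56 ± 0.09 in knockout (adjusted p = 0.0025), TPX2 by -1.33 ± 0.09 and -0.16 ± 0.09 (adjusted p = 0.0014) and RPL7 by -1.06 ± 0.15 and 0.39 ± 0.14 (adjusted p = 0.0029). GREM1 fell in wild type (-6.59 ± 0.42) and did not pass in knockout (-0.02 ± 0.28, adjusted p = 0.00099 for the difference), with 121 and 149 CPM at E41 and 156 and 109.7 CPM at E62 in knockout, whereas WNT5A fell in both, by more in wild type (-2.90 ± 0.14 and -1.5 ± 0.13, adjusted p = 0.0023). For CAPN3 and SLC2A1 no difference was detected. CAPN3 changed by 1.84 ± 0.09 and 2.0 ± 0.09, a difference of -0.15 ± 0.12 (adjusted p = 0.39), and SLC2A1 by -1.68 ± 0.18 and -1.89 ± 0.18, a difference of 0.21 ± 0.25 (adjusted p = 0.56). In all genotype comparisons the group and the number in its library names cannot be told apart.

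**Figure D5:**
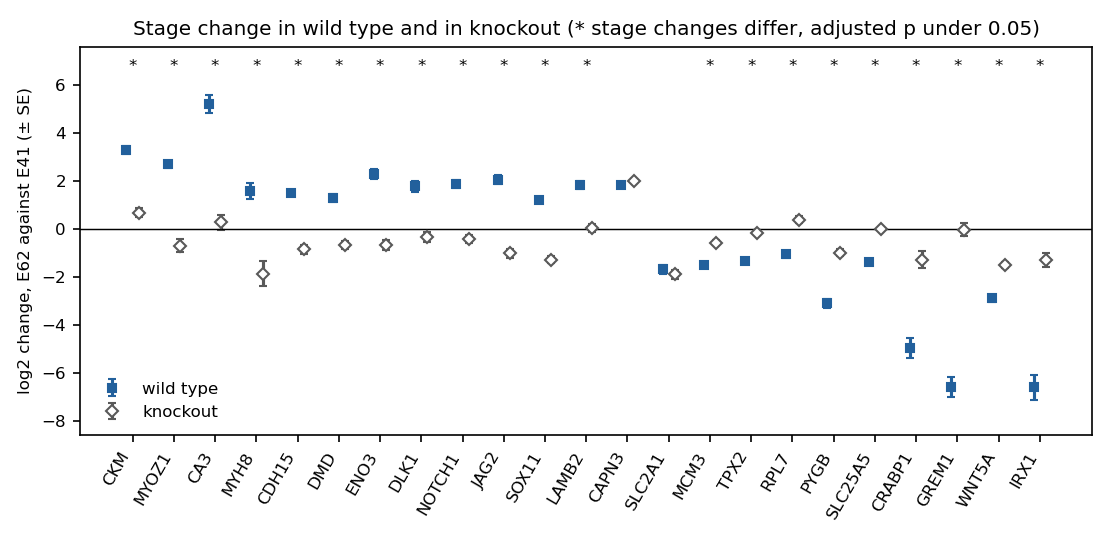
Log2 change of E62 against E41 with standard errors (n = 2 libraries per group) in wild type (squares) and in knockout (diamonds); asterisks mark genes whose stage change differed between genotypes. CKM, CA3, DLK1 and the Notch genes NOTCH1 and JAG2 lay higher in wild type, and CAPN3 and SLC2A1 lay together in both genotypes.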

How the data were processed

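Limb muscle RNA of 8 pig libraries was measured by bulk RNA sequencing, 2 per genotype and stage. Per the labels' protocols RNA was extracted with an RNeasy kit, and a TruSeq RNA or a Stranded mRNA kit gave the libraries. Whether counting used strand is not given in the sources used here. The deposited values are estimated counts per gene, not whole numbers, and the submitters' processing notes list kallisto and DESeq2, with no versions, and as builds susScr11 and Sscrofa11.1. Counts were rounded for the fits. Of 22516 rows 15527 (69%) had a symbol, and rows without one were tested but not named.

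Counts were fitted with edgeR 4.0.16 in R 4.3.3 (TMM factors, filterByExpr with a minimum count of 10, quasi-likelihood test, 1 mean per group over all 8 libraries), and p-values were adjusted over all 17020 genes by the Benjamini-Hochberg method. CPM are counts per 1000000 of the TMM-scaled total. limma 3.58.1 (voom), DESeq2 1.42.0, other scalings, filters, thinned counts, fits of the wild-type libraries alone, a replicate block and leaving out each library were tried. Against groups with 0 counts 3 counts over the group serve as the floor of the fold, and with 1 to 3 counts the ratio has an exact 95% binomial (Clopper-Pearson) interval, both for counting error only. In simulated counts of the wild-type comparison (16734 genes), 20 of 50 genes changed 2-fold were recovered, and 47, 50 and 49 of 50 changed 4-, 8- and 16-fold, with 3 false calls.

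The libraries and the 55 gene lists were chosen with earlier results of these data known. Of 1420 genes written in the lists 1300 had a row and 1271 were tested. Named genes are the 12 largest changes each way (mean of at least 2 CPM, a symbol, no overlap), up to 6 genes of smallest p per list with up to 3 called against its majority, and members of the regulator, myosin, thin filament and junction lists. Which of these to name, and any other gene named, such as cell type markers and isoform partners, was decided after the values were seen. Levels per length were not computed, since no transcript lengths were used here, and no sequences are shown. Some genes that the rule would name are not reported here. Gene spans are from the RefSeq annotation of Sscrofa11.1.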

Additional observations from a re-analysis of the deposited data

Results flagged for a closer look

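The stage change differed between wild type and knockout in 4553 genes by the test of the difference, genes with the largest wild-type changes among them. Those genes were picked by their wild-type change, which also enters the difference, so large differences among them are in part built in. In wild type minus knockout (log2), the difference was 9.14 ± 1.55 for SNAI3, 5.14 ± 0.92 for IP6K3, 4.95 ± 0.48 for CA3, 4.69 ± 0.52 for SLC25A34 and 3.96 ± 0.40 for NT5C1A. It was 2.55 ± 0.59 for CPA5 and 2.22 ± 0.61 for PLIN5, each higher in wild type. KRT18, which fell in wild type, had a difference of -5.72 ± 1.32. SNAI3 had 0 counts in both knockout E62 libraries, so its value depends on the prior count of the fit and is no bound. CA3 changed by 0.27 ± 0.33 in the knockout and PLIN5 by 1.97 ± 0.44. The difference was no longer called for KRT18 without WT E62 replicate 1, WT E62 replicate 2, KO E62 replicate 1 or either KO E41 library, or with limma-voom (adjusted p 0.0504 to 0.131). The same held for CPA5 without WT E62 replicate 2 (adjusted p = 0.0518) and KO E41 replicate 2 (0.0771) and for PLIN5 without any 1 of the 4 wild-type libraries or either KO E41 library, or with limma-voom (adjusted p 0.0595 to 0.125).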

How the results depend on the processing

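Of 189 named genes that were called, 133 kept the call in every alternative and 56 lost it in at least 1. These alternatives include the main fit with a change of at least 2-fold required. That rule alone removes 32 named genes by definition, and some of them, such as MYOD1 and MYOG, lost the call nowhere else. The 56 therefore do not all depend on the processing. The number of genes called for the wild-type stage change was 4491 without WT E62 replicate 2 and 2730 with a change of at least 2-fold required, and 4491 to 6885 over the libraries left out in turn. Other settings gave 5068 (wild-type libraries alone with the replicate block) to 6979 (DESeq2), with 5960 for the wild-type libraries alone. The difference between genotypes was called in 2499 genes without KO E41 replicate 1, 2685 without KO E41 replicate 2 and 2327 with at least 2-fold required, and in 2499 to 4282 over the libraries left out. With the replicate number as a block, 6109 and 3851 genes were called. Losses given with single genes above, and most list counts, do not cover fits with this block. With it, 12 named genes lost the call over all libraries and 12 with the wild-type libraries alone. MYL11 (adjusted p = 0.108) and NDUFV1 (0.0844) lost it only in the latter fit or under the 2-fold rule. Deviations of same-numbered wild-type libraries correlated at 0.00749 (-0.122 to 0.0811 over all pairs of groups). Whether same-numbered libraries share more than the number cannot be told from these values. TMM factors from genes outside the muscle lists raised the median of all genes by 0.0828 on the log2 scale and the share higher among called genes from 49.7% to 58%. Genes near 0 changed sign without being called. TNNC1 was at 0.0227 with library size alone, 0.0662 with factors from outside the muscle lists, 0.0495 with the 1 CPM filter, 0.0418 with thinned counts and -0.152 to 0.233 over the libraries left out in turn. Over the same, MYL6B ranged from -0.0893 to 0.0515 and CKB from -0.187 to 0.355. The cause of these changes was not tested. With 2 libraries per group and 4 residual degrees of freedom, a gene not called may still have changed. Changes of about 2-fold were often missed in simulated counts. Far fewer genes were changed there than were called here, so that rate does not carry over to these data.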

Other observations

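Some hormone and clock genes were called in the wild-type stage change. Of 28 glucocorticoid and thyroid response genes, 12 were higher and 4 lower (median 0.37), the lower count being 2 without WT E41 replicate 2 or WT E62 replicate 2. THRA, the thyroid hormone receptor alpha, had 97.3 and 107 CPM at E41 and 201 and 189 CPM at E62 (log2 change 0.94 ± 0.10, adjusted p = 0.00063), and NR1D2, a repressor of the circadian clock, 16.7 and 18.9 CPM at E41 and 52.7 and 59.3 CPM at E62 (log2 change 1.65 ± 0.15, adjusted p = 0.00038). TEF, another clock-controlled factor, rose from 21.6 and 22.6 to 45.4 and 36.2 CPM (0.88 ± 0.12), whereas FKBP5, a glucocorticoid-induced chaperone of the steroid receptor, fell from 71.3 and 76.5 to 31.3 and 29.3 CPM (-1.28 ± 0.09). The hour at which tissue was taken is not given in the labels.

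HSPB1, a small heat shock protein of muscle, had 107 and 121 CPM at E41 and 246 and 232 CPM at E62 and rose (log2 change 1.07 ± 0.10, adjusted p = 0.00047). HSPA5, the chaperone of the endoplasmic reticulum, had 1073 and 852 CPM at E41 and 425 and 394 CPM at E62 and fell (log2 change -1.23 ± 0.15, adjusted p = 0.00087). Among growth regulators, of 16 IGF axis genes 3 were higher and 6 lower, and the lower count was 1 without WT E41 replicate 1, 3 without WT E41 replicate 2, 3 without WT E62 replicate 1 and 2 without WT E62 replicate 2, and 3 with limma-voom or TMM factors without the muscle lists. In the main fit the share of IGF axis genes called was 56.2%, against 39.8% over all genes. IGFALS, a subunit of the circulating IGF complex, rose from 1.98 and 1.73 to 6.26 and 4.92 CPM (1.59 ± 0.32). Of the myostatin inhibitors, FSTL3 fell from 20.1 and 19.5 to 7.52 and 9.36 CPM (-1.23 ± 0.22) and WFIKKN1 rose from 0.628 and 0.796 to 3.46 and 2.77 CPM (2.12 ± 0.36). STC1, a stanniocalcin, fell from 9.56 and 8.49 to 3.67 and 2.92 CPM (-1.45 ± 0.19).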
